A study of Mus musculus with 8 samples.

Results

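Leydig cells lie between the seminiferous tubules of the testis and make testosterone. The genes described here are the steroid synthesis and Leydig cell genes Lhcgr, Nr5a1, Star, Cyp11a1, Fdx1, Hsd3b1, Cyp17a1, Hsd17b3, Cyp19a1 and Insl3, followed in 4 kinds of purified mouse male germ cell, which are not the cells these genes are known for. Every probe set annotated to exactly 1 of these genes was taken, whatever its level. That gave 12 of 45101 probe sets, for 7 of the 10 genes: 3 for Star, 3 for Cyp11a1, 2 for Nr5a1 and 1 each for Fdx1, Hsd3b1, Cyp17a1 and Hsd17b3. Lhcgr and Cyp19a1 had no probe set named for them in the annotation used here, and the 2 probe sets listing Insl3 list the neighbouring Jak3 as well, so these 3 genes were not analysed here.

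Signals came from 8 oligonucleotide arrays hybridised with total RNA. The labels give the strain of all mice as BL/6-129 and name no treatment. The groups were type A spermatogonia and type B spermatogonia, which divide before meiosis, pachytene spermatocytes in the first meiotic prophase, and haploid round spermatids, with 2 arrays each from separate preparations. The sources used here do not give age, purification method or purity. Values are MAS5 signals on a linear scale, 1 per probe set and array, and changes are differences of log2(signal + 16), which understate the change of a low signal. The scaling makes the average signal of all arrays equal, so a level is relative to the rest of its array.

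Testosterone synthesis begins when luteinizing hormone, bound by its receptor Lhcgr, raises cyclic AMP in the Leydig cell. Star then moves cholesterol into the mitochondrion, where Cyp11a1 cleaves its side chain with electrons passed on by ferredoxin, the product of Fdx1. Hsd3b1, Cyp17a1 and Hsd17b3 carry the product on to testosterone, and Cyp19a1, aromatase, turns androgens into estrogens. The nuclear receptor Nr5a1, also called SF-1, drives many of these genes, and Insl3 is a peptide hormone of the same cells.

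Sums of germ cell markers set apart the spermatogonial and the spermatid arrays. The sum of the pachytene markers did not separate pachytene cells from spermatids. The 7 spermatogonial markers summed to between 5364 and 9057 in spermatogonia, against 1256 to 2497 in pachytene cells and spermatids, and the sum of 7 round spermatid markers was 24599 and 28783 in spermatids and 2294 and 2742 in pachytene cells. The 7 pachytene markers summed to 16305 and 16983 in pachytene cells and to 16848 and 17328 in spermatids. Single markers of this list differed between these stages in both directions. Piwil1 read 1791.5 and 1620.7 in pachytene cells and 309.3 and 230.9 in spermatids, whereas Pgk2 read 716.9 and 847.8, then 2750.0 and 3123.2. Type B replicate 2 stood apart from the other spermatogonial arrays: its round spermatid sum was 1599, against 85.2 to 108.2 on the other 3 spermatogonial arrays, and its pachytene sum was 8917 against 1928 to 3363. Counts of calls in pachytene cells against type B are therefore also given without each type B array.

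Regulatory sequence is shown for the gene with the largest fall over the series, for a member with a smaller fall and for Fdx1, which was not called lower, to set the promoters of members that behaved differently side by side. Of the 10 genes, 7 had a window in the RefSeq promoter table (build GRCm38.p6). The 250 bases before the annotated start are printed 5′ to 3′ on the gene's strand, with CAAGG, the core of the sequence that Nr5a1 protein binds, in capitals, or CCTTG where it lies on the opposite strand. The Hsd3b1 window lies at chr3:98859795-98860044 (minus strand), that of Hsd17b3 at chr13:64089202-64089451 (minus strand) and that of Fdx1 at chr9:51963603-51963852 (minus strand). The gene annotation used for names puts the Hsd17b3 start at chr13:64089262. By that annotation the last printed bases of the Hsd17b3 window lie inside the gene.
Hsd3b1: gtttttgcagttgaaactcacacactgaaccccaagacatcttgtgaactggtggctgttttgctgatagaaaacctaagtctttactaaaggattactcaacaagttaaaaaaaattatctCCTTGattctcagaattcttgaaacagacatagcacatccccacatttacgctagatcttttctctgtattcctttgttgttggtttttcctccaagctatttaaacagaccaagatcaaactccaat
Hsd17b3: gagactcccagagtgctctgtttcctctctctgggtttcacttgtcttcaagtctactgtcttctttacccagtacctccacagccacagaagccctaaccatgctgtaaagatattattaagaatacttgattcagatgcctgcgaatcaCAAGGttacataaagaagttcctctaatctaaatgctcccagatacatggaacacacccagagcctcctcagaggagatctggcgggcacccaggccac
Fdx1: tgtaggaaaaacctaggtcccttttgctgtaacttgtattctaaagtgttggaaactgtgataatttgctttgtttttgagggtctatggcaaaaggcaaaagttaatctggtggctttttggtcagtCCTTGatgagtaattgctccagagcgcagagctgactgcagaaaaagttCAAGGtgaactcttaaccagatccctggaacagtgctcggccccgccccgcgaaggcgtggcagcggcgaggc
The core occurred 1 time in the Hsd3b1 window, 1 time in that of Hsd17b3 and 2 times in that of Fdx1, and 0 times in either window of Cyp11a1, which has 2 annotated starts. A match on either strand was present in 46.0% of all 32851 windows of that length, so it does not set these genes apart. The longer form CAAGGNCA, present in 5.53% of windows, occurred in none of the 5 windows of these 4 genes. Only these forms were searched, so a window without a match is not shown to lack a site. A match is only a description of the letters in this window.

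Of the 12 probe sets, 9 passed the filter on low values, which asked for a signal above the array's median on at least 2 of the 8 arrays, and all 7 genes kept at least 1. The 3 that did not pass were the second Nr5a1 probe set, with signals of 1.6 to 13.6, and 2 further Cyp11a1 probe sets, with 21.7 to 43.2 and 2.3 to 31.8. They are described no further. In the limma fit over the 28635 probe sets that passed, each of the 9 differed among the 4 stages by the F test (adjusted p = 1.64e-04 to 0.0406). So did 69.9% of all probe sets tested, so that count is not a result about these genes.

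**Figure D1:**
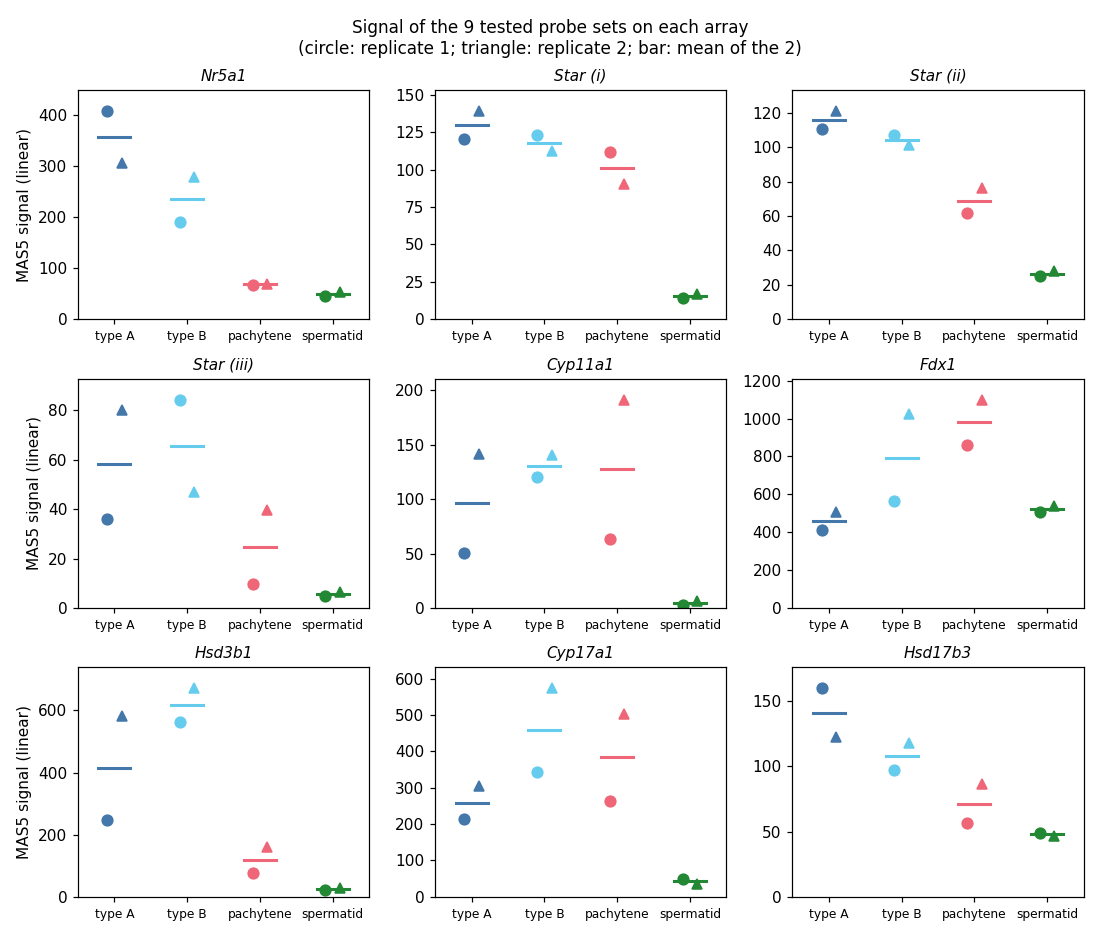
Linear MAS5 signal (vertical axis, from 0, with its own range in each panel) of the 9 tested probe sets in the 4 stages (horizontal axis). The circle is replicate 1, the triangle replicate 2 and the bar their mean. The pachytene arrays of Cyp11a1 and Cyp17a1 overlap the spermatogonial ones and the spermatid arrays lie below both, Hsd3b1 and Nr5a1 are already low in pachytene cells, and Fdx1 is highest in type B replicate 2 and the pachytene arrays.

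The regulator Nr5a1 read 408.6 and 307.0 in type A replicates 1 and 2, 190.5 and 278.9 in type B, 67.5 and 69.9 in pachytene cells and 45.5 and 54.0 in spermatids. All 4 spermatogonial arrays lay above all 4 later arrays, and no stage overlapped the next. From type B to pachytene cells Nr5a1 fell by 1.54 ± 0.25 on the log2 scale (SE of the limma fit, n = 2 arrays against 2, adjusted p = 0.00166). Between pachytene cells and spermatids the change was -0.37 ± 0.25 (adjusted p = 0.332), and over the whole series from type A to spermatids it fell by 2.50 ± 0.25 (adjusted p = 1.12e-04). In type B against type A the change was -0.59 ± 0.25, which did not pass (adjusted p = 0.614).

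Star, which delivers cholesterol to the mitochondrion, was followed by 3 probe sets designed on the same reference transcript, so they are not independent. They are called Star (i), (ii) and (iii) here. Star (i) read 120.7 and 139.4 in type A, 123.3 and 112.7 in type B, 112.1 and 90.6 in pachytene cells and 13.9 and 17.1 in spermatids. The first 6 of these arrays differed little and both spermatid arrays were far below them. From pachytene cells to spermatids this probe set fell by 1.89 ± 0.20 (adjusted p = 5.24e-04), while the change from type B to pachytene cells was -0.20 ± 0.20 (adjusted p = 0.455, 95% interval -0.67 to 0.28).
Star (ii) took a more even course, with 110.8 and 121.3 in type A, 107.1 and 101.2 in type B, 61.6 and 76.5 in pachytene cells and 25.3 and 27.8 in spermatids. Its change into pachytene cells was -0.50 ± 0.20 (adjusted p = 0.0648) and into spermatids it fell by 0.99 ± 0.20 (adjusted p = 0.00756), which did not pass without pachytene replicate 2 (adjusted p = 0.0656) or spermatid replicate 1 (adjusted p = 0.0528). Star (iii) differed more between replicates, with 36.2 and 80.3, 84.4 and 47.1, 9.7 and 39.7, and 4.8 and 6.4 in the 4 stages in order. It passed only between type A and spermatids. There Star (i) fell by 2.21 ± 0.20, Star (ii) fell by 1.63 ± 0.20 and Star (iii) fell by 1.72 ± 0.44 (adjusted p = 8.46e-05, 2.58e-04 and 0.00942), the last not passing without type A replicate 2 (-1.27, adjusted p = 0.0564) or spermatid replicate 1 (-1.66, adjusted p = 0.0545). Into pachytene cells Star (iii) read -1.07 ± 0.44 (adjusted p = 0.0733), and it passed without pachytene replicate 2 (-1.63, adjusted p = 0.0285). The 3 thus had the same sign in every comparison except type B against type A, where they read -0.12, -0.14 and 0.17 and none passed.

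Cyp11a1, the side chain cleavage enzyme, read 50.8 and 141.8 in type A, 120.6 and 140.7 in type B, 63.6 and 191.6 in pachytene cells and 2.6 and 6.4 in spermatids. The pachytene arrays enclosed the type B values, and both spermatid signals were near the bottom of the scale. Cyp11a1 fell by 2.65 ± 0.51 from pachytene cells to spermatids (adjusted p = 0.00655), a call lost without spermatid replicate 1 (-2.52, adjusted p = 0.0524). It fell by 2.33 ± 0.51 from type A to spermatids (adjusted p = 0.00455). Into pachytene cells its change was -0.19 ± 0.51 (adjusted p = 0.782, 95% interval -1.36 to 0.99), an interval too wide to show that the level held.

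Fdx1, the ferredoxin that passes electrons to Cyp11a1 and is used by other mitochondrial enzymes too, read 411.9 and 504.3 in type A, 564.3 and 1024 in type B, 862.9 and 1101 in pachytene cells and 508.2 and 540.8 in spermatids. It was above the array median on all 8 arrays, and the spermatid arrays lay just above both type A arrays. From type A to spermatids its change was 0.20 ± 0.30 (adjusted p = 0.590, 95% interval -0.50 to 0.89). The other 8 probe sets were called lower between these stages. From pachytene cells to spermatids it read -0.87 ± 0.30 (adjusted p = 0.0664), and it passed without either type B array (adjusted p = 0.0199). The step into pachytene cells turned on which type B array was kept: Fdx1 changed by 0.35 ± 0.30 with both (adjusted p = 0.364), by 0.77 when replicate 2 was left out (adjusted p = 0.0458) and by -0.07 when replicate 1 was.

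Hsd3b1, which turns pregnenolone into progesterone, read 246.4 and 581.3 in type A, 561.6 and 671.0 in type B, 77.0 and 160.2 in pachytene cells and 23.5 and 29.1 in spermatids. All 4 spermatogonial arrays lay above both pachytene arrays, and those above both spermatid arrays. Hsd3b1 fell by 2.30 ± 0.43 into pachytene cells (adjusted p = 0.00309) and by 1.60 ± 0.43 from there into spermatids (adjusted p = 0.0262). Over the whole series it fell by 3.23 ± 0.43, the largest change of the 9 (adjusted p = 3.92e-04). The fall into spermatids lost its call without pachytene replicate 2 (-1.14, adjusted p = 0.160), without spermatid replicate 1 (-1.51, adjusted p = 0.133) or without spermatid replicate 2 (-1.70, adjusted p = 0.107), and with a pseudocount of 64 (-0.98, adjusted p = 0.0681). Hsd3b1 belongs to a family of similar genes, and whether this probe set also reads its relatives was not tested.

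Cyp17a1, which makes androgens from progestins, read 213.0 and 304.1 in type A, 343.7 and 573.0 in type B, 264.1 and 502.6 in pachytene cells and 48.5 and 36.2 in spermatids. Type B and pachytene arrays overlapped, and both spermatid arrays lay below all 6 others. Cyp17a1 fell by 2.72 ± 0.37 from pachytene cells to spermatids (adjusted p = 0.00142), the largest fall of the 9 at that step, and by 2.22 ± 0.37 from type A to spermatids (adjusted p = 0.00118). Its change into pachytene cells was -0.27 ± 0.37 (adjusted p = 0.567, 95% interval -1.12 to 0.58). The interval for Hsd3b1 at the same step, -3.29 to -1.31, lay wholly below it, but the difference between the 2 genes was not tested.

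Hsd17b3, which makes testosterone from androstenedione, read 159.9 and 122.6 in type A, 97.1 and 118.3 in type B, 56.3 and 86.8 in pachytene cells and 49.2 and 46.9 in spermatids. No stage overlapped the next, and each step was small. Neither single step after type B passed, at -0.52 ± 0.25 into pachytene cells (adjusted p = 0.118) and -0.43 ± 0.25 into spermatids (adjusted p = 0.250). From type A to spermatids Hsd17b3 fell by 1.29 ± 0.25 (adjusted p = 0.00243).

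**Figure D2:**
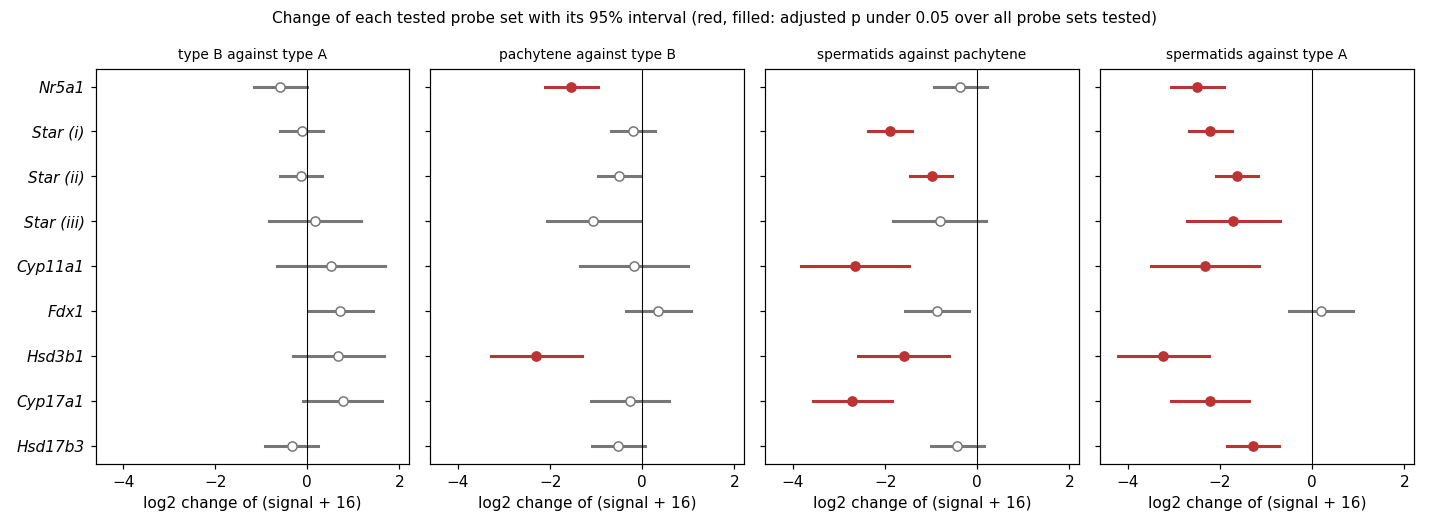
Change of log2(signal + 16) (horizontal axis) of each tested probe set (rows) in the 4 comparisons (panels). The point is the limma estimate from 2 arrays against 2 and the line its 95% interval, red and filled where the adjusted p was under 0.05 over all probe sets tested. Hsd3b1 and Nr5a1 fall into pachytene cells, Cyp17a1, Cyp11a1, Hsd3b1 and 2 Star probe sets fall into spermatids, and Fdx1 lies near 0 between type A and spermatids.

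Counted over the 9 tested probe sets, none was called in type B against type A, where limma called 0.0% of all probe sets tested (none of those tested, with 1121 higher and 1201 lower at an unadjusted p under 0.05). Without adjustment limma gave 2 of 9 under 0.05, Nr5a1 on the lower and Fdx1 on the higher side. The count stayed at 0 without either type B array. Type B lay wholly below type A for 3 of 9 and wholly above for 2, beside 20.2% and 14.9% of all probe sets. The median change was 0.17, against -0.06 over all probe sets. From type B to pachytene cells 2 were lower and none higher, and 29.4% of all probe sets tested were called lower and 20.3% higher, so 2 of 9 was below the background share. Pachytene arrays lay wholly below type B for 6 of 9 and wholly above for none, beside 43.4% and 33.6%. The median was -0.50 against -0.14, and the counts were 2 lower without type B replicate 1, and 2 lower with Fdx1 higher without replicate 2.
From pachytene cells to spermatids 5 were lower and none higher, beside 15.7% of all probe sets called lower and 11.7% higher. These were Cyp17a1, Cyp11a1, Hsd3b1 and 2 of the 3 Star probe sets, so 4 of the 7 genes. All 9 had both spermatid arrays below both pachytene arrays, as did 39.8% of all probe sets tested, with 28.9% the other way round, and the median was -0.99 against -0.09. Fewer of the 9 were called without pachytene replicate 2 or spermatid replicate 1, where fewer of all probe sets tested were called too. From type A to spermatids 8 were lower, for 6 of the 7 genes, beside 41.6% of all probe sets called lower and 21.9% higher, with a median of -2.21 against -0.46. Spermatids lay wholly below type A for 8 of 9 and wholly above for 1, beside 53.4% and 29.6%.
Centring each array on its 75th percentile moved the median of all probe sets from -0.14 to 0.18 in pachytene cells against type B and from -0.46 to -0.01 in spermatids against type A. The share of calls that were higher then went from 40.8% to 58.0% and from 34.4% to 52.3%. The counts of 2, 5 and 8 members called lower were also obtained with that centring, while the uncalled changes of Cyp17a1, Cyp11a1 and Star (i) into pachytene cells turned their sign.

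The replicates of 1 stage differed in the same sense for most of these genes. In pachytene cells replicate 2 was the higher for 8 of 9 probe sets, while it was the higher for 47.8% of all probe sets tested. Its signal was 3.01 times that of replicate 1 for Cyp11a1, 2.08 times for Hsd3b1, 1.90 times for Cyp17a1 and 4.09 times for Star (iii), and 0.808 times for Star (i). In type A replicate 2 was the higher for 7 of 9, beside 51.0% of all probe sets, with 2.79 times for Cyp11a1 and 2.36 times for Hsd3b1, and the lower for Nr5a1 and Hsd17b3, at 0.751 and 0.767 times. In type B and spermatids it was the higher for 6 and 7 of 9, beside 48.1% and 52.4% of all probe sets. Of the 9 probe sets, 3 read the 1 gene Star. The same sense in pachytene cells was not particular to these genes: the Sertoli cell marker sum described below was 6142 in replicate 1 and 8696 in replicate 2. That sum was also the higher in replicate 2 of type B and spermatids, but the lower in replicate 2 of type A (19078 and 14308).

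Markers of other testicular cells took different courses. Into spermatids the Sertoli cell sum fell as the Leydig cell sum did, whereas the stromal and macrophage sums did not fall. The 4 Leydig cell markers with a probe set, Star, Cyp11a1, Hsd3b1 and Cyp17a1, summed to 630.9 and 1167 in type A, 1149 and 1497 in type B, 516.8 and 945.0 in pachytene cells and 88.5 and 88.8 in spermatids, and 3 of the 4 were below the median on both spermatid arrays. These 4 are themselves among the genes described above, read by the same probe sets, so their sum restates those values and is no separate evidence. Fewer Leydig cells in a preparation and less RNA per cell cannot be told apart in these bulk samples.
The 14 Sertoli cell markers, of the somatic cells inside the tubule that nurse the germ cells, summed to 10961 to 19078 in spermatogonia, 6142 and 8696 in pachytene cells and 1672 and 1954 in spermatids. Of these 14, 9 were lower in pachytene cells than in type B, where 32.7% of all 14159 genes were. From pachytene cells to spermatids 10 were lower, beside 19.0% of all genes. Fewer were lower there without pachytene replicate 2 or spermatid replicate 1, where fewer of all probe sets tested were called too. The 9 of the earlier step were 5 without pachytene replicate 1, 10 without type B replicate 1, and 6 with 1 higher without type B replicate 2.
The 11 peritubular and stromal markers took another course: they summed to 12106 to 18761 in spermatogonia, 914.7 and 1224 in pachytene cells and 1349 and 1447 in spermatids. Of them, 10 were lower in pachytene cells than in type B (32.7% of all genes), and 10 were without either type B array. Between pachytene cells and spermatids, where the Leydig sum went down, none was lower and 3 were higher, beside 19.0% and 15.9% of all genes. Fewer were higher without pachytene replicate 1 or spermatid replicate 1, where fewer of all probe sets tested were called too. The 11 macrophage markers summed to 859.4 to 1653 in spermatogonia, 422.2 and 543.3 in pachytene cells and 730.6 and 765.7 in spermatids. The part of any of these cells in the signal of the steroid synthesis genes was not tested.

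**Figure D3:**
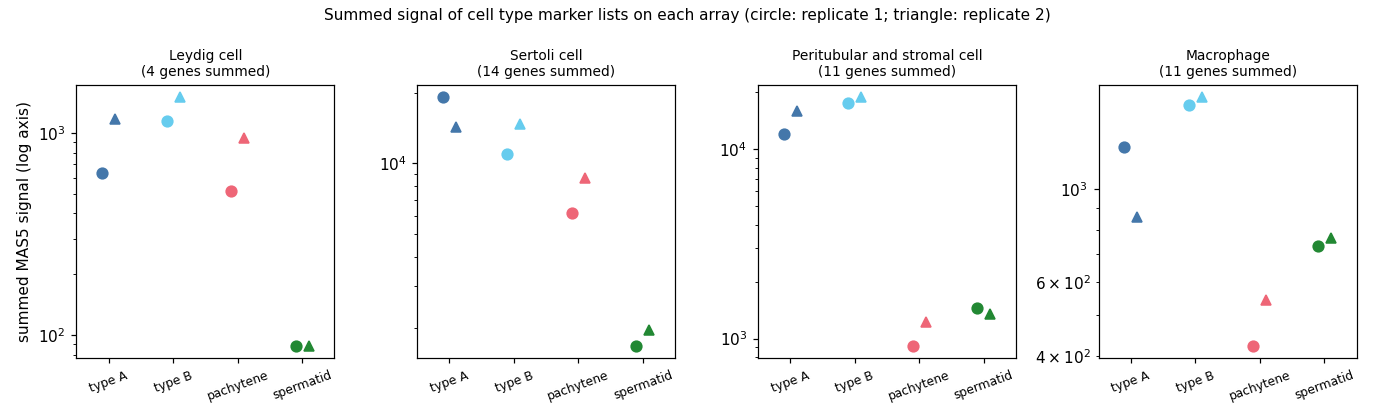
Summed MAS5 signal (log axis, its own range in each panel) of 4 marker lists on each array, by stage. The Leydig cell genes summed are themselves among the steroid synthesis genes described above. The circle is replicate 1 and the triangle replicate 2. Leydig and Sertoli cell sums are lowest in spermatids, whereas the stromal and macrophage sums are lowest in pachytene cells.

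Other genes of the pathway were taken from 4 lists with 1 probe set per gene, that with the highest mean, and adjusted over 14159 genes. In type B against type A limma called 0 of their genes, beside 0.0% of all genes, with 3 higher and 4 lower at an unadjusted p under 0.05. Without type B replicate 1 it called few genes, in the first list and in that of luteinizing hormone signalling. In that setting it also called a small share of all probe sets tested. Of 13 tested genes for cholesterol supply and electron transfer, 8 were lower and 2 higher in pachytene cells than in type B (background 32.7% lower, 25.5% higher). Vdac1, a pore of the outer mitochondrial membrane, fell by 2.89 ± 0.30 (adjusted p = 2.03e-04), and Npc1, which exports cholesterol from lysosomes, fell by 1.69 ± 0.20 (adjusted p = 3.25e-04). Stard4, a cytosolic relative of Star, fell by 1.09 ± 0.21 (adjusted p = 0.00260), and Acbd3 fell by 0.86 ± 0.29 (adjusted p = 0.0321), which did not pass without type B replicate 1, either pachytene array or either spermatid array (adjusted p = 0.0555 to 0.153). Lipe, the hormone-sensitive lipase that frees stored cholesterol, went the other way: it read 93.0 and 77.5 in type B, 217.8 and 199.8 in pachytene cells and 454.1 and 456.8 in spermatids. It rose by 1.15 ± 0.18 and then by 1.07 ± 0.18 (adjusted p = 0.00115 and 0.00292). Arrays centred on the 75th percentile gave 3 lower and 2 higher in pachytene cells, and leaving out pachytene replicate 1 gave 3 and 1. Without type B replicate 1 the counts were 6 lower and 1 higher, and without replicate 2 they were 7 and 3.

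The list holds 3 genes of the cytochrome b5 system. Cyb5a, the cytochrome b5 that helps Cyp17a1 cleave its substrate, read 328.4 and 334.1 in type A, 290.3 and 708.0 in type B, 469.1 and 455.5 in pachytene cells and 93.8 and 117.8 in spermatids. It fell by 1.98 ± 0.36 from pachytene cells to spermatids (adjusted p = 0.00385). Into pachytene cells Cyb5b of the outer mitochondrial membrane was higher (0.81 ± 0.25, adjusted p = 0.0233) and the reductase Cyb5r3 lower (-0.57 ± 0.20, adjusted p = 0.0417). These changes are named outside the rule for pathway genes, after their values were seen. Cyb5b did not pass there without type B replicate 1 or either pachytene array (adjusted p = 0.0570 to 0.124), and Cyb5r3 did not pass without any 1 of the 4 arrays compared or either spermatid array (adjusted p = 0.0607 to 0.187), nor when centred on the 75th percentile (-0.24, adjusted p = 0.356). From there into spermatids Cyb5b and Cyb5r3 changed by -1.72 ± 0.25 and -1.11 ± 0.20 (adjusted p = 0.00126 and 0.00396). Stard4 fell by 0.72 ± 0.21 (adjusted p = 0.0287), which did not pass without any 1 of the 4 arrays compared (adjusted p = 0.0633 to 0.177). In all, 4 of these 13 genes were lower in spermatids and 1 higher (background 19.0% and 15.9%). Against type A, 10 were lower and 1 higher in spermatids (background 41.9% and 28.2%), or 6 and 1 when centred on the 75th percentile.

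Among 12 tested genes for other steroid enzymes, 5 were lower and none higher in pachytene cells than in type B, a share of lower calls near the background (32.7% lower, 25.5% higher). There were 5 lower without type B replicate 1 and 4 without replicate 2. Hsd17b10, a mitochondrial dehydrogenase, read 307.1 and 413.3 in type B and 4.3 and 22.9 in pachytene cells and fell by 3.73 ± 0.42 (adjusted p = 2.80e-04). Hsd17b12 of fatty acid elongation and Hsd17b11 changed by -2.19 ± 0.25 and -1.57 ± 0.23 (adjusted p = 3.10e-04 and 8.27e-04). The estradiol-forming Hsd17b1 fell by 1.17 ± 0.29 (adjusted p = 0.00924, or 0.0585 without pachytene replicate 2). Hsd3b7 of bile acid synthesis fell by 0.74 ± 0.24 (adjusted p = 0.0263), which did not pass without type B replicate 2 or either pachytene array (adjusted p = 0.0571 to 0.144). At the last step only Hsd17b11 passed, with -0.85 ± 0.23 (adjusted p = 0.0231). It did not pass without pachytene replicate 2 (adjusted p = 0.166), spermatid replicate 1 (adjusted p = 0.0645) or spermatid replicate 2 (adjusted p = 0.137). From type A to spermatids 8 were lower and none higher (background 41.9% and 28.2%), among them Hsd11b2, which inactivates corticosterone (-1.55 ± 0.49, adjusted p = 0.0208), whose call was lost without type A replicate 2 or spermatid replicate 2 (adjusted p = 0.112 and 0.105). Quantile normalization and 75th percentile centring each gave 5 lower and 1 higher there.

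Of 22 tested genes for luteinizing hormone signalling and transcription factors, 17 were lower and 1 higher in pachytene cells than in type B (background 32.7% and 25.5%). They were 17 and 1 without type B replicate 1 and 15 and 1 without replicate 2. Pdgfra, the receptor tyrosine kinase of stromal cells and Leydig precursors, read 1436 and 1260 in type B and 17.2 and 10.7 in pachytene cells, and fell by 5.51 ± 0.27 (adjusted p = 4.61e-05). The adenylate cyclase Adcy7 and the hedgehog receptor Ptch1 changed by -5.23 ± 0.26 and -4.84 ± 0.25 (adjusted p = 4.61e-05 for both). Nr4a1, an early response gene of luteinizing hormone, fell by 3.71 ± 0.29 and Nr2f2, a nuclear receptor of stromal and immature Leydig cells, fell by 3.41 ± 0.42 (adjusted p = 9.02e-05 and 3.77e-04). Pdgfra is also on the list of stromal markers, which fell at the same step. Wt1, Gata4 and Dhh are also on the list of Sertoli cell markers, so these counts partly repeat those of the marker lists.

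Between pachytene cells and spermatids this list went both ways, with 6 of 22 lower and 3 higher, shares near the background (19.0% and 15.9%). Nr0b1, a repressor of Nr5a1 also called DAX-1, read 92.9 and 135.4 in type B, 77.0 and 125.1 in pachytene cells and 21.8 and 24.6 in spermatids and fell by 1.55 ± 0.29 (adjusted p = 0.00422). Wt1, a Sertoli cell factor, fell by 1.30 ± 0.23 (adjusted p = 0.00322). Sp1 and Creb1 changed by -1.20 ± 0.33 and -1.15 ± 0.29 (adjusted p = 0.0238 and 0.0165). Sp1 did not pass without pachytene replicate 1 or either spermatid array (adjusted p = 0.0928 to 0.135), nor Creb1 without pachytene replicate 1 or spermatid replicate 2 (adjusted p = 0.122 and 0.119). Nr4a1 rose by 1.60 ± 0.29 (adjusted p = 0.00364). Fewer of the 22 were called without any 1 of the 4 arrays of this comparison, where fewer of all probe sets tested were called too. From type A to spermatids 19 were lower and 3 higher (background 41.9% and 28.2%), with Crem, a cyclic AMP responsive factor of spermatids, up by 5.54 ± 0.69 (adjusted p = 1.95e-04).

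Among 13 tested hormone receptors and carriers, 6 were lower and 1 higher in pachytene cells than in type B (background 32.7% and 25.5%). They were 6 and 0 without type B replicate 1 and 5 and 1 without replicate 2. The estrogen receptor Esr1 read 172.1 and 198.1 in type B and 4.0 and 5.8 in pachytene cells and fell by 3.26 ± 0.22 (adjusted p = 7.55e-05). Pgrmc1, a membrane heme protein, the growth hormone receptor Ghr, Igf1r and the glucocorticoid receptor Nr3c1 changed by -2.83 ± 0.28, -2.21 ± 0.25, -2.04 ± 0.28 and -1.83 ± 0.19 (adjusted p = 1.76e-04, 2.75e-04, 5.78e-04 and 2.10e-04). By limma 0 of 13 passed between pachytene cells and spermatids (background 19.0% lower and 15.9% higher). At an unadjusted p under 0.05 limma gave 1 higher and 2 lower, beside 4415 higher and 6475 lower of all 28635 probe sets tested. Some of the 13 passed when either type B array was left out, where more of all probe sets tested were called too. From type A to spermatids 7 were lower and 2 higher (background 41.9% and 28.2%). Centring on the 75th percentile gave 5 lower and 3 higher into pachytene cells and 7 lower and 4 higher from type A to spermatids. Shbg, the carrier of sex steroids, fell by 2.40 ± 0.32 from type A to spermatids (adjusted p = 2.88e-04).

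**Figure D4:**
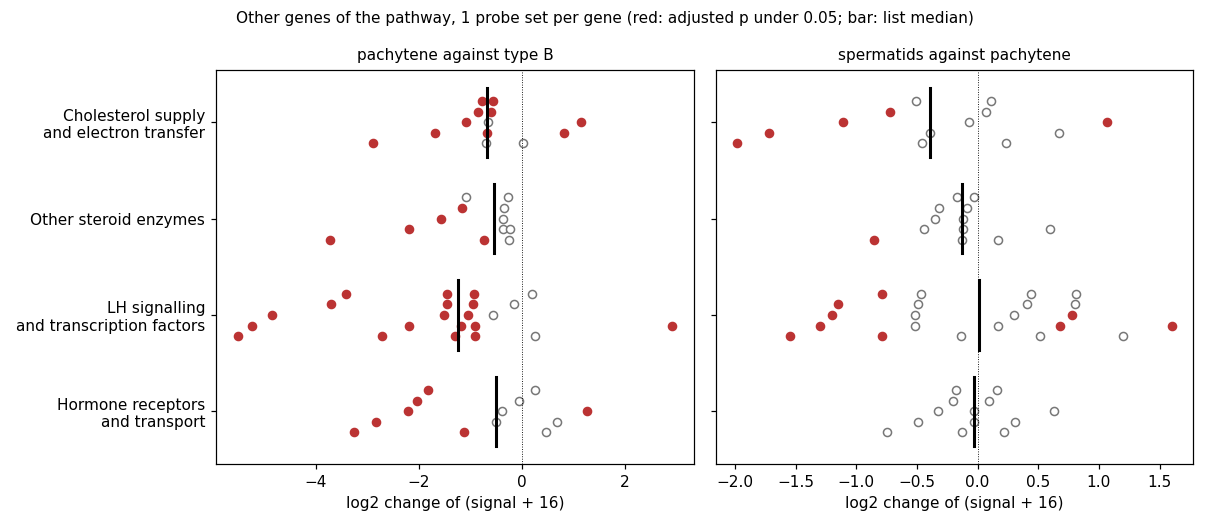
Change of log2(signal + 16) (horizontal axis) of the tested genes of 4 pathway lists (rows) into pachytene cells (left) and into spermatids (right, on its own scale). Each point is a gene, red where its adjusted p was under 0.05 over all genes tested, and the bar is the list median. Most changes lie below 0 at the first step, with a median of -1.24 for luteinizing hormone signalling and transcription factors, and on both sides of 0 at the second.

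The members differed in how they ran across the 8 arrays. As a description over arrays that share their stage and scaling, Pearson's r of log2(signal + 16) was 0.968 between Cyp17a1 and Cyp11a1 and 0.948 between Nr5a1 and Hsd17b3, and it was 0.552 between Cyp17a1 and Nr5a1. Fdx1 stood between -0.251 with Nr5a1 and 0.581 with Cyp17a1. Among 6090 genes that spanned at least 2 log2 units, those most like Cyp17a1 were Mrpl27 (r = 0.983), Dact1 (0.975) and Commd6 (0.974), and those most like Cyp11a1 were Commd6 (0.953), Mrpl27 (0.949) and Sod3 (0.949). Most like Hsd3b1 were Sumf2 (0.994), Pros1 (0.993) and Echs1 (0.989). Most like Nr5a1 were Rin3 (0.996), Alad (0.994) and Ilrun (0.993), and most like Star (i) were Rnf2 (0.990), Nup54 (0.990) and Tab1 (0.989). Fdx1 and Hsd17b3 spanned 1.38 and 1.48 log2 units over the arrays and were not compared in this way.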

How the data were processed

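Each array gave 1 deposited intensity for every probe set. It is a linear MAS5 value according to the submitters' notes, whose version and detection calls the sources used here do not give. The mean after trimming 2% at each end was 125.0 on every array, with medians of 41.5 to 51.9 in spermatogonia and 33.6 to 37.3 in later cells. The number of arrays limits the precision. Names came from the platform annotation, updated by Entrez identifier with the GRCm38.p6 gene table (34741 of 34945 probe sets with 1 gene matched). Another 932 listed several genes and 9160 none, and 64 controls were left out.

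The deposited intensities were analysed as log2(signal + 16) with limma 3.58.1 in R 4.3.3 (1 mean per stage over all 8 arrays, eBayes without trend, 4 residual and 3.91 prior degrees of freedom), tested on simulated data. Tests were two-sided, Benjamini-Hochberg adjusted over all probe sets tested and called under 0.05. Errors are SEs of the fit. Arrays were grouped by title. All member probe sets are described. Pathway genes are named if among the 5 largest called changes of their list in a comparison, and like genes are the 3 with the highest r. The genes and lists were chosen with earlier results of these data known. Alternatives were other pseudocounts (4, 64), filters, normalizations, 1 probe set per gene, a trend, a replicate block and leaving out each array.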

Additional observations from a re-analysis of the deposited data

How the results depend on the processing

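Counts of called probe sets of the steroid synthesis genes were within 1.5 times their values under all alternatives, except in spermatids against pachytene. There fewer passed without pachytene replicate 2 or spermatid replicate 1, and fewer of all probe sets tested were called in these settings too. With 1 array left out, the counts of the other comparisons and of the F test stayed within 1.5 times their values. With 1 array left, a stage is assumed to vary like the others. The titles give a replicate number and do not say whether it pairs the samples. Deviations of same-numbered arrays correlated at -0.271 (type A and type B) to 0.351 (type A and pachytene), which cannot settle that. With the replicate block 0, 2, 6 and 8 probe sets passed in the 4 comparisons, 1 more than without it in spermatids against pachytene (Fdx1, adjusted p = 0.0396).

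No called change of a member turned its sign. Uncalled ones did, and the cause was not tested. In type B against type A this happened with 1 array left out, over ranges of -0.11 to 1.13 for Cyp11a1 and -0.27 to 0.61 for Star (iii). In pachytene against type B the ranges with 1 array left out were -0.72 to 0.17 for Cyp17a1, -0.88 to 0.50 for Cyp11a1 and -0.07 to 0.77 for Fdx1. With arrays centred on the 75th percentile, Cyp17a1 read 0.05, Star (i) 0.13 and Cyp11a1 0.14 there, and quantile normalization gave Star (i) 0.15 and Cyp11a1 0.10. A pseudocount of 64 gave Fdx1 a call in spermatids against pachytene (-0.82, adjusted p = 0.0460). Quantile normalization put the share of calls that were higher at 50.2% in pachytene against type B and 44.7% in spermatids against type A. Alternatives for the pathway and marker lists were chosen after seeing the data. With quantile normalization Acbd3 (limma adjusted p = 0.072) and Hsd3b7 (0.146) were not called into pachytene cells. Nor were Stard4 (0.0684) and Sp1 (0.0536) from pachytene cells to spermatids, and Hsd11b2 (0.0886) from type A to spermatids. With 75th percentile centring Acbd3 (0.153), Hsd3b7 (0.159) and Hsd11b2 (0.0745) were not called in these comparisons.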

Other observations

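The 2 probe sets that list both Jak3 and Insl3 entered no comparison, because which of the 2 genes gave their signal cannot be told apart. One of them read 343.2 and 367.3 in type A, 635.8 and 1143 in type B, 508.4 and 933.5 in pachytene cells and 58.1 and 62.9 in spermatids. The other read 5.0 to 31.1 over the 8 arrays.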
